A study of Mus musculus with 6 samples.

Results

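The 10 genes described here encode the creatine kinase and adenine nucleotide machinery that buffers ATP in muscle. They are the creatine kinases Ckm, Ckmt2 and Ckb, the creatine synthesis enzymes Gatm and Gamt, the creatine transporter Slc6a8, the adenylate kinase Ak1 and the AMP deaminases Ampd1, Ampd2 and Ampd3. They were picked by gene symbol from the 24054 genes of the deposited count table, and all 10 were found in it. RNA was sequenced from the gastrocnemius, a mostly fast-twitch calf muscle, of male C57BL/6 mice in 2 groups of 3 libraries. The libraries bear separate numbers, but the labels do not state that each came from a different mouse, so the p-values measure the spread between these samples. The labels give the genotypes as IRF4 knock out (MI4KO) and IRF4 overexpression (MI4OE), and the constructs are those of the study. MI4KO mice carried floxed Irf4 alleles (Irf4 flox/flox) and the Myl1-cre allele, which removes Irf4, the gene of a DNA-binding interferon regulatory factor, selectively in skeletal muscle. MI4OE mice carried the same Myl1-cre with a Rosa26-LSL-IRF4 transgene, which the recombinase switches on. The Cre allele was thus shared by both groups, no library of mice with unaltered Irf4 entered the comparison, and a difference between the groups cannot be assigned to the loss or to the gain of Irf4. The Cre acts in muscle fibres, so the other cells of the muscle kept their own Irf4 alleles. The labels give a high-fat diet for all 6 samples, whereas the study describes its animals mainly on chow, so the diet is uncertain, and age was not given in the labels.

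Creatine kinase moves phosphate between ATP and creatine. In a muscle fibre the mitochondrial form charges creatine where ATP is made and the cytosolic form recharges ATP where myosin spends it. When ADP accumulates, adenylate kinase turns it into ATP and AMP, and AMP deaminase removes the AMP as IMP, which the purine nucleotide cycle can return to AMP. Most body creatine lies in muscle, which makes little of it and takes it up from blood through a sodium-dependent transporter.

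The comparison asked whether muscle that overexpressed Irf4 and muscle that lacked it differed in these transcripts. No member passed the test adjusted over all genes. Ckb, the brain-type cytosolic kinase, was the only member to meet the study's looser criterion, at 1.88-fold higher in MI4OE, as 4.36% of all genes tested did in that direction. It lay near the bottom of the levels, and without MI4OE replicate 1 or MI4KO replicate 1 it no longer met the criterion. Ckmt2, the mitochondrial kinase of striated muscle, had the largest fitted difference of the 10, at 2.39-fold, most of which came from 1 MI4OE library. The other transcripts at high level, Ckm, Ak1 and Ampd1, had fitted differences of 1.32-fold or less.

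Libraries held between 18828605 and 29239585 expected counts, and the 10 genes together took from 3.01% to 4.17% of them. Irf4 was at 6, 0 and 2 counts in the MI4KO libraries and at 2864, 10557 and 5911 in the MI4OE libraries, so every library went with its label. Skeletal muscle identity was plain in every library. The summed level of 10 fibre markers, led by Myh4 and Acta1, was from 208013 to 277842 CPM (counts scaled to library size with TMM factors) in MI4KO and from 158911 to 224128 CPM in MI4OE. MI4OE replicate 1 stood apart in fibre type. Its 9 slow fibre markers, led by Myh7 and Myl2, summed to 6967 CPM, against 650 CPM in MI4OE replicate 3 and from 39.2 to 137 CPM in the other 4 libraries. Its 12 fast fibre markers, led by Myh4 and Atp2a1, had the lowest sum of the 6 libraries, at 160981 CPM against 238938 CPM or more elsewhere. Values without this library are given for each of the 10 genes and for the shares tested. By median, the largest shift among the lists for other cell types was in adipocyte markers, led by Fabp4 and Cfd, of which 7 of 7 were lower in MI4OE and 6 met the criterion used below, with a median log2 fold change of -3.62 and sums from 184 to 966 CPM in MI4KO and from 113 to 266 CPM in MI4OE. Its part in the members' values was not tested. In bulk muscle, fewer cells of a type and less RNA per cell cannot be told apart.

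**Figure D1:**
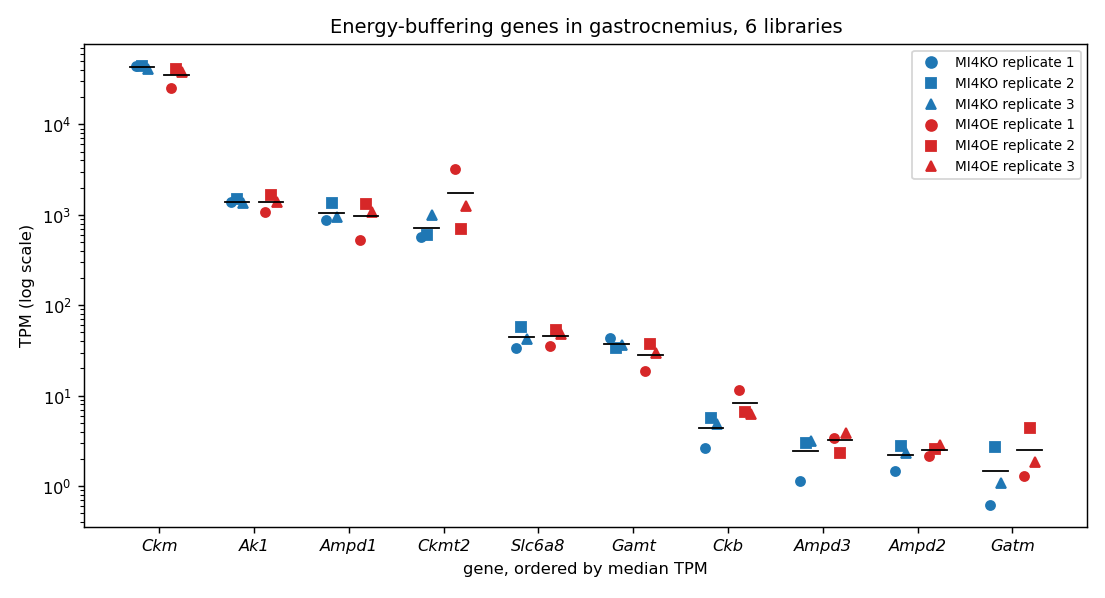
Level of each gene in TPM (transcript abundance scaled by length, log scale) in the 6 libraries, with genes ordered by their median; blue symbols are MI4KO, red symbols are MI4OE, the symbol shape gives the replicate and short lines give the group means (n = 3). Ckm stands far above the rest, at 25389 to 44373 TPM, and MI4OE replicate 1 is the lowest library for Ckm and the highest for Ckmt2 and Ckb.

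Levels of different genes were compared in TPM, which is scaled by transcript length. Ckm had a median of 40853 TPM over the 6 libraries and was between the fourth and sixth most abundant gene of each library by counts. Ak1 followed at 1380 TPM, Ampd1 at 1006 TPM and Ckmt2 at 844 TPM. Over the libraries these 3 genes overlapped in range with their neighbours, so their order is not resolved, while Ckm lay 29.6-fold above Ak1 with no overlap. A lower tier held Slc6a8 at 45.3 TPM and Gamt at 34.9 TPM, whose ranges overlapped. The median of Ckmt2 was 18.6-fold above that of Slc6a8, with no overlap. The lowest tier held Ckb at 5.99 TPM, Ampd3 at 3.11 TPM, Ampd2 at 2.44 TPM and Gatm at 1.56 TPM, and neighbours in this tier overlapped. Gamt lay 5.82-fold above Ckb, again without overlap. Muscle fibre forms (Ckm, Ckmt2, Ak1, Ampd1) thus filled the top tier, and forms known mainly from other tissues (Ckb, Ampd2, Ampd3) lay in the lowest.

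Because Irf4 encodes a DNA-binding factor and the 3 creatine kinases range from the top tier to the lowest in level, the 250 bases upstream of their annotated starts are shown. The sequences are those of RefSeq on GRCm38.p6, at chr7:19410844-19411093 (plus strand) for Ckm, chr13:91876886-91877135 (minus strand) for Ckmt2 and chr12:111672339-111672588 (minus strand) for Ckb, and each is written 5′ to 3′ along its gene. Capitals mark matches on either strand to an E-box (CANNTG, the motif of myogenic bHLH factors), a CCAAT box, a TATA box, a MEF2 box, a CArG box or the core of the interferon-stimulated response element (ISRE), taken as a pair of GAAA runs with 2 bases between.
Ckm: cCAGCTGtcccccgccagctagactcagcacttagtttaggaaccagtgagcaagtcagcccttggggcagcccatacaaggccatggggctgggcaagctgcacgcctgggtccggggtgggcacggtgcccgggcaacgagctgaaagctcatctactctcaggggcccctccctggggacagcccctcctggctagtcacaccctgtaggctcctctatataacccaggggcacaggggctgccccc
Ckmt2: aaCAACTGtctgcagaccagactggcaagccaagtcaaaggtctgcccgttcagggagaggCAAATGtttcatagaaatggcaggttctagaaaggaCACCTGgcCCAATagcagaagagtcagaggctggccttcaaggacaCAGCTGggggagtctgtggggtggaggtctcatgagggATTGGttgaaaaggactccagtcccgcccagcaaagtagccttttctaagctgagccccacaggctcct
Ckb: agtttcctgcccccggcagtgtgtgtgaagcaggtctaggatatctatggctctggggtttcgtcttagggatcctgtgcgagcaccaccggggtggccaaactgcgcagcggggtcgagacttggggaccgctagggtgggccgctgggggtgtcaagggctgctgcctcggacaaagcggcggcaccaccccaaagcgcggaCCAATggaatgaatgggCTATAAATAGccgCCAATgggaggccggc

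The 3 windows differed in what they held. Ckm had 1 E-box, starting 249 bases upstream of the start. Ckmt2 had 4 E-boxes, starting 248, 189, 153 and 107 bases upstream, and 2 CCAAT boxes. Ckb had no E-box but a MEF2 box starting 29 bases upstream, whose letters contain the TATA box, and 2 CCAAT boxes. Windows were matched for 8 of the 10 members, Slc6a8 and Ampd1 being the exceptions, and some members had several starts, giving 14 windows. An E-box lay in 11 of these 14 windows, where 66.2% of all 32851 promoter windows of that length held 1 or more. The ISRE core lay in 0 of the 14, and in 2.98% of all windows. Other background shares were 33.8% for the CCAAT box, 12.4% for the TATA box (TATAAA), 2.92% for the MEF2 box and 1.47% for the CArG box. These matches describe letters in short windows only, and the well-studied muscle enhancer of Ckm lies further upstream than the window searched.

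Across the 10 genes, 5 were higher and 5 lower in MI4OE by fitted log2 fold change, with a median of 0.07, against a median of 0.00 over the 12660 genes tested. By edgeR's quasi-likelihood test with Benjamini-Hochberg adjustment, 0 of the 10 passed an adjusted p of 0.05, where 3 of all genes tested, 0.0237%, did so. DESeq2, edgeR's exact test and limma likewise called 0 of the 10. At an unadjusted p under 0.05, 1 member (Ckb) passed, and 7.58% of all genes tested did. The study's criterion of at least 1.5-fold with an unadjusted p under 0.05 was met by 1 member higher in MI4OE, against 4.36% of all genes tested, and by 0 members lower, against 2.28%. By this criterion the fit called 552 genes higher and 289 lower in MI4OE. The study reported more genes lower than higher in its own comparison of these groups, so the calls differ. In CPM, the groups did not overlap for 1 gene higher in MI4OE (Ckb) and 1 lower (Ckm), where 7.38% and 5.48% of all genes did so.

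**Figure D2:**
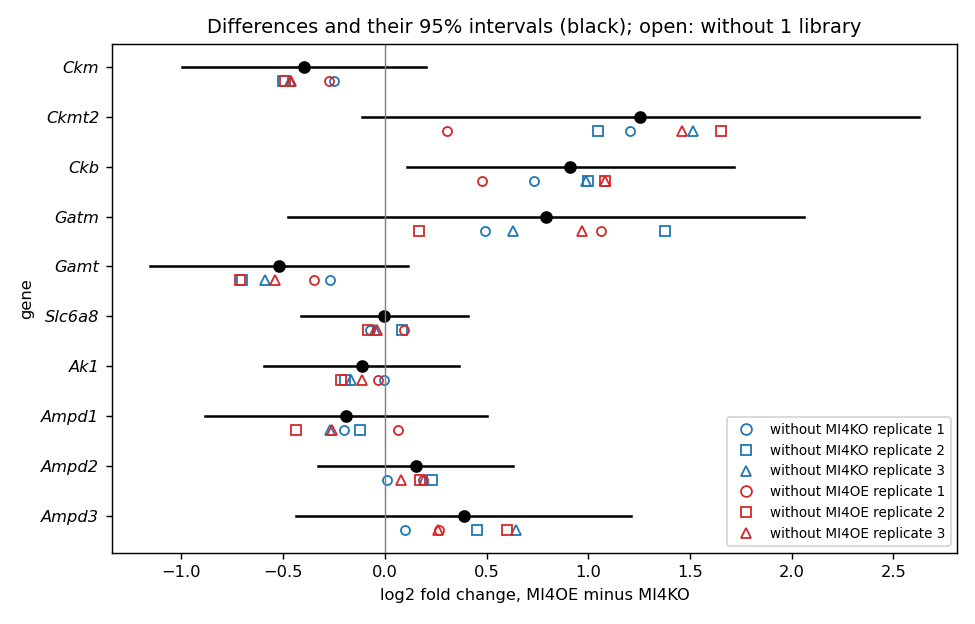
Fitted log2 fold change of each gene, MI4OE minus MI4KO (black dot), with its 95% interval (black bar, edgeR, n = 3 in each group); open symbols below each bar give the value after leaving out 1 library, blue for MI4KO and red for MI4OE. Only the interval of Ckb, from 0.11 to 1.71, lies clear of 0, and without MI4OE replicate 1 Ckb and Ckmt2 fall to 0.48 and 0.30.

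Among the creatine kinases, Ckm encodes the muscle cytosolic form that is bound in part to the M-band of the sarcomere. Its level was 44001, 31816 and 33693 CPM in the MI4KO libraries and 22473, 31025 and 29555 CPM in the MI4OE libraries. Every MI4OE library lay below every MI4KO library, by a narrow margin for MI4OE replicate 2, and MI4KO replicate 1 and MI4OE replicate 1 were the extremes. The means were 36503 ± 6561 CPM (SD, n = 3) and 27684 ± 4573 CPM, a log2 fold change of -0.40 (SE 0.26, 95% interval -0.998 to 0.20, adjusted p = 0.791 by edgeR). In TPM the groups did overlap, with 44292, 44373 and 40551 TPM in MI4KO and 25389, 41155 and 38012 TPM in MI4OE. The separation seen in CPM was thus lost in TPM. Over the fits that left out 1 library the log2 fold change ran from -0.50 to -0.25, smallest without MI4KO replicate 1, and leaving out MI4OE replicate 1 gave -0.27. The fast fibre markers also had 11 of 12 members lower in MI4OE and 0 past the criterion, with sums from 238938 to 318664 CPM in MI4KO and from 160981 to 256905 CPM in MI4OE, and their part in the Ckm value was not tested.

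Ckmt2 encodes the sarcomeric mitochondrial kinase, which sits between the mitochondrial membranes. The MI4KO libraries held 599, 457 and 865 CPM of it, and the MI4OE libraries 3009, 557 and 1026 CPM. MI4OE replicate 1 lay far above all the others, and MI4OE replicate 2 lay inside the MI4KO range, so the groups overlapped. The means were 640.5 ± 207 CPM and 1531 ± 1302 CPM (SD, n = 3), a log2 fold change of 1.26 (SE 0.59, 95% interval -0.11 to 2.63, adjusted p = 0.688 by edgeR). Without MI4OE replicate 1 the log2 fold change was 0.30, with an adjusted p of 0.993 by edgeR, and without MI4OE replicate 2 it was 1.65. DESeq2 and edgeR's exact test placed the unadjusted p at 0.0190 and 0.0390, below 0.05 as against 0.0669 by the quasi-likelihood test of edgeR, while the adjusted p remained at 0.367 and 0.530.

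The summed level of other mitochondrial transcripts had the same library order as Ckmt2, but single transcripts did not all do so. A list of 12 mitochondrial enzymes, led by Atp5a1 and Cox6a2, summed to 7431, 6110 and 7535 CPM in MI4KO and to 12212, 6421 and 7899 CPM in MI4OE, and in both groups together its lowest library was MI4KO replicate 2 and its highest MI4OE replicate 1. Every enzyme of this list except Sdha was at its highest in MI4OE replicate 1, as Ckmt2 was. Sdha, named after its values were seen, was highest in MI4OE replicate 3 (534 CPM), with 512 CPM in MI4OE replicate 1. Outside this list, Vdac1 of the outer mitochondrial membrane was lowest in MI4OE replicate 1 (1046 CPM). Of these 12 enzymes, 11 were higher in MI4OE and 0 met the criterion. Ckmt2 varied over a wider range than the summed list, but a sum can hide the spread of single members. Within the list, Cox7a1 ran from 97.7 to 545 CPM and Sdhb from 265 to 1075 CPM, against 457 to 3009 CPM for Ckmt2. These 2 enzymes were named after their values were seen. Ckmt2 equalled 8.06%, 7.49% and 11.5% of the summed list in MI4KO and 24.6%, 8.68% and 12.98% in MI4OE, a ratio formed after the values were seen. Slow fibre markers, of which 9 of 9 were higher in MI4OE and 8 met the criterion, were at their highest in the same library as Ckmt2, MI4OE replicate 1, but were lower in MI4OE replicate 2, at 53.0 CPM, than in MI4KO replicates 2 and 3. Their part in the Ckmt2 value was not tested.

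**Figure D3:**
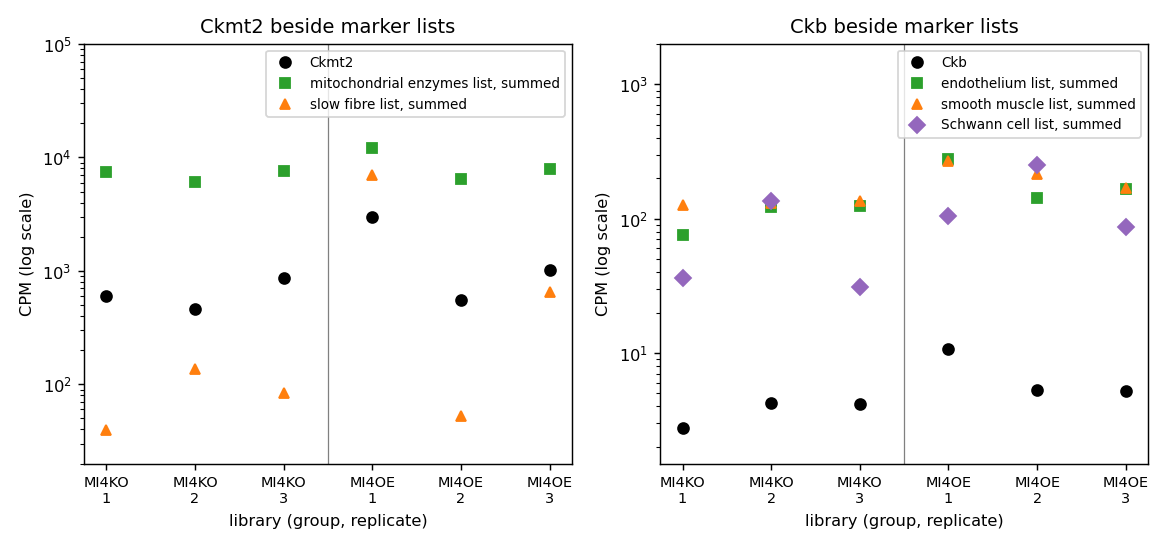
CPM on a log scale in each library for Ckmt2 (left, black) beside the summed mitochondrial enzyme and slow fibre lists, and for Ckb (right, black) beside the summed endothelium, smooth muscle and Schwann cell lists; the grey line parts MI4KO from MI4OE. Ckmt2 and the mitochondrial list are both highest in MI4OE replicate 1 (3009 and 12212 CPM), and Ckb and the endothelium list are both lowest in MI4KO replicate 1 (2.78 and 75.7 CPM) and highest in MI4OE replicate 1 (10.8 and 277 CPM).

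Ckb, the brain-type form, is the cytosolic kinase of neurons, smooth muscle and many other cells outside the muscle fibre. Its level was 2.78, 4.24 and 4.198 CPM in MI4KO, from 68, 107 and 125 counts, and 10.8, 5.28 and 5.17 CPM in MI4OE, from 219, 151 and 117 counts. All MI4OE libraries lay above all MI4KO libraries, MI4OE replicate 1 by the widest margin. The means were 3.74 ± 0.829 CPM and 7.07 ± 3.21 CPM (SD, n = 3), a log2 fold change of 0.91 (SE 0.34, 95% interval 0.11 to 1.71) or 1.88-fold. The unadjusted p was 0.0307, ranking Ckb 647 among 12660 genes, and the adjusted p was 0.598 by edgeR. The groups also did not overlap in TPM, with 2.67, 5.64 and 4.82 TPM in MI4KO against 11.6, 6.68 and 6.34 TPM in MI4OE. Without MI4OE replicate 1 the log2 fold change was 0.48 (unadjusted p = 0.101 by edgeR), and without MI4KO replicate 1 it was 0.73 (unadjusted p = 0.1004 by edgeR), so the criterion was lost in both cases. In the GENCODE M21 transcripts, 312 of the 1423 words of 50 bases in Ckb, 21.9%, also occur in the related sequences Ckb-ps1, Ckb-ps2 and Gm12892, so its counts may be uncertain. The transcript set that the reads were aligned to was not searched, and how far such copies affected the counts was not tested.

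The summed vascular markers were, like Ckb, higher in every MI4OE library than in any MI4KO library, although single markers overlapped. The 6 endothelial markers, led by Cdh5 and Pecam1, all had higher means in MI4OE, 3 of them past the criterion, and summed to 75.7, 121 and 125 CPM in MI4KO and to 277, 143 and 167 CPM in MI4OE. The 6 smooth muscle markers, led by Smtn and Acta2, likewise all had higher means, 3 past the criterion, with sums from 127 to 136 CPM in MI4KO and from 168 to 268 CPM in MI4OE. The groups overlapped for 2 of the 6 endothelial markers and for 3 of the 6 smooth muscle markers, among them Tagln, named after its values were seen, which at 13.8 CPM in MI4OE replicate 3 lay below all of MI4KO. None of the markers in these lists was at 0. As a description formed after the values were seen, Ckb equalled 3.68%, 3.49% and 3.37% of the endothelial sum in MI4KO and 3.89%, 3.68% and 3.09% in MI4OE, ranges that overlap. Such an overlap was not particular to endothelium. The ratio to the smooth muscle sum was 2.20% to 3.24% in MI4KO and 2.44% to 4.02% in MI4OE. Ratios to the fibroblast, Schwann cell, slow fibre, mitochondrial, macrophage, erythrocyte and atrophy sums overlapped too. Those to the skeletal muscle fibre, fast fibre, adipocyte and hepatocyte sums did not. Schwann cell markers, 7 of 7 higher with 0 past the criterion, summed to between 30.7 and 135 CPM in MI4KO and between 86.1 and 249 CPM in MI4OE, with their highest sum in MI4OE replicate 2. Fibroblast markers, led by Dcn and Col3a1, were higher in 6 of 6 cases, all past the criterion, at 204 to 309 CPM in MI4KO and 358 to 484 CPM in MI4OE. The part of these cell types in the Ckb value was not tested.

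The tested genes most like Ckb in their pattern over the 6 libraries included Arhgef2, Tmod3, Shank3 and Cd300lg, among 6399 genes with a mean of at least 10 CPM. Likeness was the root mean square difference of log2 CPM, each gene centred on its own mean, and it ran from 0.10 for Arhgef2 to 0.12 for Cd300lg. These 4 genes, chosen for their likeness, had log2 fold changes from 0.68 (Tmod3) to 0.93 (Arhgef2).

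As shares of the 3 kinases' TPM, Ckm made up 98.7%, 98.6% and 97.6% of creatine kinase transcripts in MI4KO and 88.7%, 98.3% and 96.8% in MI4OE. Ckmt2 made up nearly all the remainder, with 1.27%, 1.34% and 2.37% in MI4KO and 11.3%, 1.67% and 3.18% in MI4OE. MI4OE replicate 1 again stood alone, and MI4OE replicate 2 fell within the MI4KO range. The mean share of Ckmt2 was 1.66% ± 0.616 in MI4KO and 5.37% ± 5.15 in MI4OE (SD, n = 3), a difference of 3.71 percentage points with p = 0.2 by a two-sided exact permutation test. Left without MI4OE replicate 1, the difference was 0.764 percentage points. The share of Ckb was 0.01003% ± 0.00356 in MI4KO and 0.0242% ± 0.0142 in MI4OE (SD, n = 3), without overlap, and the difference of 0.0142 percentage points was 0.00602 without MI4OE replicate 1. Its exact permutation p of 0.1 is the smallest that 3 libraries against 3 allow, so no share could pass 0.05. The fourth creatine kinase gene, Ckmt1, the ubiquitous mitochondrial form, was at 5 counts or fewer in every library and was not tested.

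**Figure D4:**
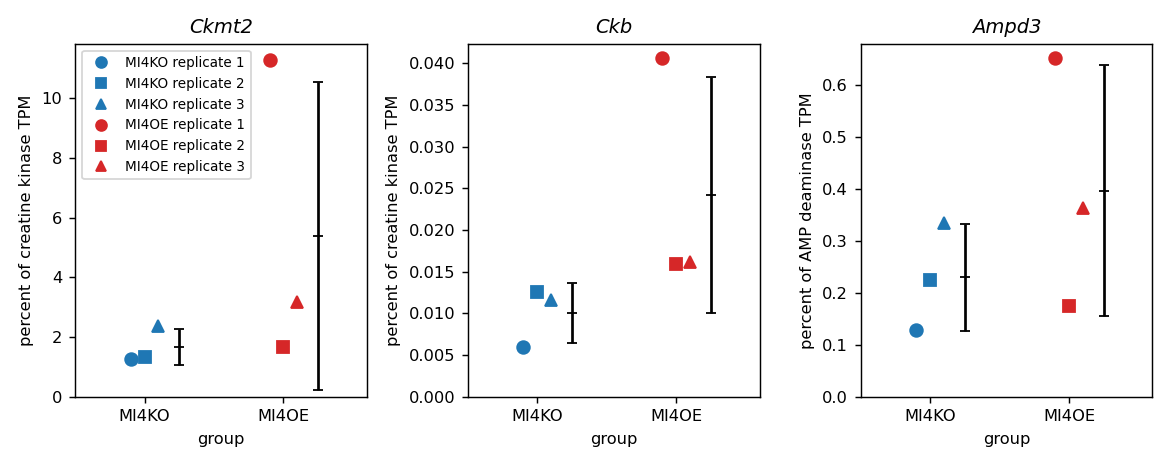
Share of creatine kinase TPM taken by Ckmt2 (left) and Ckb (middle) and share of AMP deaminase TPM taken by Ampd3 (right), in percent, for each library, with the mean and SD of each group (black, n = 3) and a different axis range in each panel. MI4OE replicate 1 is the highest library in all 3 panels, at 11.3%, 0.0406% and 0.652%. Ampd3 itself was at 3.44 TPM in that library, below 3.88 TPM in MI4OE replicate 3. The AMP deaminase total was 528 TPM in MI4OE replicate 1 and 1071 TPM in MI4OE replicate 3.

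Creatine supply showed no difference past the test. Gatm encodes the first enzyme of creatine synthesis, which makes guanidinoacetate mainly in kidney and pancreas. Its level was 1.06, 3.33 and 1.54 CPM in MI4KO and 1.97, 5.77 and 2.47 CPM in MI4OE, from between 26 and 165 counts. The second replicate of each group was the highest and the groups overlapped, with a log2 fold change of 0.79 (SE 0.55, 95% interval -0.48 to 2.06, adjusted p = 0.810 by edgeR). That value moved between 0.17 without MI4OE replicate 2 and 1.38 without MI4KO replicate 2, and was 1.06 without MI4OE replicate 1. The summed Schwann cell markers were likewise highest in the second replicate of each group, at 35.9, 135 and 30.7 CPM in MI4KO and 105, 249 and 86.1 CPM in MI4OE, a likeness noted after the values were seen, and their part in the Gatm value was not tested. Gamt, which methylates guanidinoacetate to creatine, reached 27.3, 15.4 and 19.0 CPM in the MI4KO libraries against 10.6, 17.9 and 14.5 CPM in those of MI4OE. MI4KO replicate 1 was the highest and MI4OE replicate 1 the lowest, with the others intermixed, and the log2 fold change was -0.52 (SE 0.27, 95% interval -1.15 to 0.11, adjusted p = 0.726 by edgeR). It ran from -0.71 without MI4OE replicate 2 to -0.27 without MI4KO replicate 1, and was -0.35 without MI4OE replicate 1.

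The creatine transporter Slc6a8 was the least different of the 10. Its levels in MI4KO, 98.5, 123 and 104 CPM, sat beside 92.9, 119.5 and 112 CPM in MI4OE, with the groups fully intermixed. Its means were 108.4 ± 12.8 CPM and 108.2 ± 13.7 CPM (SD, n = 3). The 95% interval of its log2 fold change, from -0.41 to 0.41, still allows a change of 1.33-fold in either direction. The value was 0.09 without MI4OE replicate 1. All of its counts were placed on 1 of its 3 annotated transcripts in every library.

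Ak1, the main cytosolic adenylate kinase of fast muscle, had 2052, 1605 and 1679 CPM in MI4KO, where MI4OE had 1447, 1865 and 1620 CPM. The groups overlapped, and the means of 1779 ± 240 CPM and 1644 ± 210 CPM (SD, n = 3) gave a log2 fold change of -0.11 (SE 0.21, 95% interval -0.59 to 0.37, adjusted p = 0.929 by edgeR). It was -0.03 without MI4OE replicate 1, and ran from -0.22 without MI4OE replicate 2 to -0.0039 without MI4KO replicate 1. Of its 4 annotated transcripts, 1 took from 99.4% to 99.9% of the TPM in every library. Ak1 and Slc6a8 were thus the members at moderate or high level with the narrowest intervals.

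The AMP deaminases were dominated by Ampd1, the isoform of adult skeletal muscle. Its MI4KO levels were 1489, 1652 and 1353 CPM and its MI4OE levels 794, 1722 and 1421 CPM. MI4OE replicate 1 was lowest and MI4OE replicate 2 highest, so MI4OE libraries bracketed those of MI4KO. The means were 1498 ± 150 CPM and 1312 ± 474 CPM (SD, n = 3), a log2 fold change of -0.19 (SE 0.30, 95% interval -0.88 to 0.50, adjusted p = 0.913 by edgeR), which turned to 0.07 without MI4OE replicate 1. Ampd1 made up from 98.9% to 99.7% of the family's TPM. Its share differed by -0.248 percentage points between the groups (two-sided exact permutation p = 0.4, n = 3 in each group). That difference was -0.0620 percentage points without MI4OE replicate 1 and -0.407 without MI4OE replicate 2.

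Ampd2, a broadly expressed isoform known from liver and brain, had 3.89, 5.43 and 5.17 CPM in MI4KO, set against 5.07, 5.21 and 5.83 CPM in MI4OE. The groups overlapped, and the log2 fold change was 0.15 (SE 0.21, 95% interval -0.33 to 0.63, adjusted p = 0.901 by edgeR). It was 0.01 without MI4KO replicate 1, 0.23 without MI4KO replicate 2 and 0.19 without MI4OE replicate 1. Ampd3, the erythrocyte isoform, had MI4KO levels of 3.32, 6.54 and 7.93 CPM and MI4OE levels of 9.05, 5.31 and 9.01 CPM. Of the MI4OE libraries, 2 lay above all of MI4KO and 1 lay between them, and the log2 fold change was 0.39 (SE 0.35, 95% interval -0.43 to 1.21, adjusted p = 0.853 by edgeR). Its value was 0.10 without MI4KO replicate 1, was 0.64 without MI4KO replicate 3 and 0.27 without MI4OE replicate 1. Erythrocyte markers, led by Hba-a1 and Hbb-bt, summed to 173, 112 and 167 CPM in MI4KO and to 463, 162 and 201 CPM in MI4OE, with 3 of 3 tested members higher, 1 past the criterion and Hba-a2 and Hbb-bs listed at 0 throughout. Within MI4OE both Ampd3 and that sum were lowest in replicate 2, but within MI4KO replicate 1 was the lowest for Ampd3 and the highest for the sum. The part of erythrocytes in the Ampd3 value was not tested. The split of Ampd3 reads between its 2 annotated transcripts varied, with 1 of them taking all of its TPM in replicate 1 of each group, 76.6% and 82.1% in the other MI4KO libraries and 26.8% and 88.4% in the other MI4OE libraries, at counts from 81 to 236 for the whole gene. The split of Ampd2 among its 3 annotated transcripts varied as well, with 1 of them taking from 0% to 100% of its TPM, at counts from 95 to 154. A low count per gene limits how far such a split can be read.

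Other genes of the same reactions were taken from a list of 29, of which 28 were in the table and 23 had enough counts to be tested. None of the 23 passed the adjusted test by edgeR. By unadjusted p under 0.05, and by the 1.5-fold criterion, 1 passed, which was Ak4 (higher in MI4OE, as were 4.36% of all genes tested by that criterion), and 14 were higher and 9 lower, with a median log2 fold change of 0.08. Ak4 encodes an adenylate kinase of the mitochondrial matrix. Its MI4KO libraries held 0.491, 0.674 and 1.24 CPM and its MI4OE libraries 2.95, 1.43 and 2.56 CPM, from between 12 and 60 counts. All MI4OE libraries lay above all MI4KO libraries, and the log2 fold change was 1.504 (SE 0.45, 95% interval 0.45 to 2.56, adjusted p = 0.522 by edgeR). Of the other adenylate kinases tested, Ak3 was at a log2 fold change of -0.17 and Ak6 at -0.05.

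The purine nucleotide cycle enzymes that follow AMP deaminase had small fitted differences, and how they rank against the other sets was not tested. Adssl1, the muscle adenylosuccinate synthase, had a log2 fold change of 0.08, Adss one of 0.11 and Adsl, adenylosuccinate lyase, one of 0.01. None of these 3 met the criterion, and the groups overlapped for each. The 9 tested genes of AMP and IMP breakdown and purine salvage ran from -0.39 (Pnp) to 0.79 (Nt5c2), with 0 past the criterion. The carriers and channels that pass adenine nucleotides across the mitochondrial membranes ran from -0.10 (Vdac2) to 0.18 (Slc25a4, the muscle ADP/ATP carrier), again with 0 past the criterion. The nucleoside diphosphate kinases Nme1 and Nme2 were at 0.51 and 0.24. Ckmt1, Ak5, Ak7, Ak8 and Ada were too low to be tested.

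**Figure D5:**
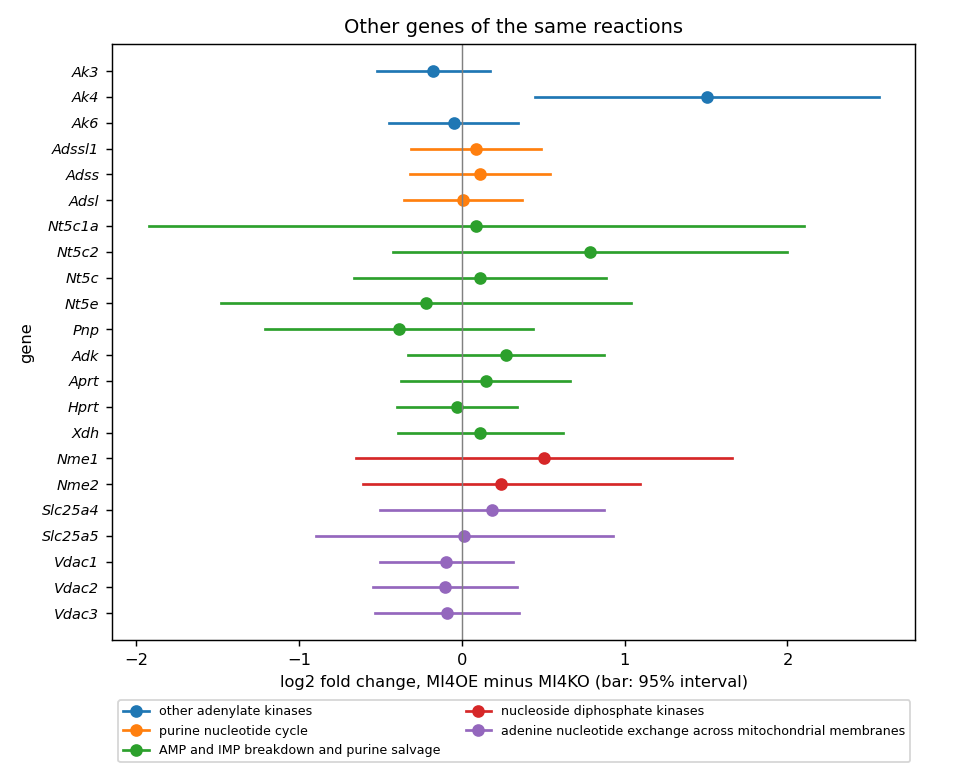
Fitted log2 fold change, MI4OE minus MI4KO, with its 95% interval (edgeR, n = 3 in each group) for 22 tested genes of the wider list, coloured by their part in the reactions. The interval of Ak4, from 0.45 to 2.56, is the only 1 shown that lies clear of 0, and the 3 purine nucleotide cycle genes lie between 0.01 and 0.11.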

How the data were processed

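Polyadenylated RNA from gastrocnemius in 3 MI4KO and 3 MI4OE samples was sequenced as single reads from stranded libraries. The authors made per-gene estimated counts and TPM with RSEM 1.2.15 after Bowtie2 2.1.0 alignment to UCSC transcripts (bcl2fastq 2.17 for demultiplexing), and deposited the expected counts for all samples in 1 table. The genome build was not given in the sources used here. Deposited tables of the authors' own comparisons hold fold changes, p-values and false discovery rates and were not used. Per-gene and per-transcript TPM values were taken as deposited.

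Expected counts were rounded and tested in R 4.3.3 with edgeR 4.0.16 (filterByExpr, minimum count 10 and total 15, TMM factors, quasi-likelihood test, no covariates), and p-values were adjusted by Benjamini-Hochberg over the 12660 genes that passed, of 24054. Standard errors come from the fitted F statistic and intervals are at 95%. Shares of family TPM were compared by two-sided exact permutation tests. Scripts were tested on simulated data. The fit was repeated unfiltered, with a floor of 1 on mean CPM, with RLE factors, with library totals alone, with TMM factors taken after dropping the top 100 genes, by DESeq2 1.42.0, by the exact test of edgeR, by limma 3.58.1 on log2(TPM + 1) and log2(TPM + 0.1), and leaving out each library. Depth ran from 18828605 to 29239585 counts, where 1 count is 0.0336 to 0.0492 CPM, and intervals reflect the spread between these samples.

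The members and lists were chosen with earlier results of these data known. Genes named are all members, Irf4, wider-list genes that met the criterion (others are given by range and named after their values were seen), the 5 genes closest in pattern to a member that met it, and the 2 most abundant genes of a marker list. Of these lists, 3 genes are not reported here. Marker lists not printed beside a result were as follows. Macrophage markers (5 of 6 matched, 0 past the criterion) summed to between 31.6 and 56.1 CPM in MI4KO and between 21.2 and 45.5 CPM in MI4OE. Hepatocyte markers (3 of 6 tested, all 3 lower, 1 past the criterion) summed to between 1.88 and 49.6 CPM and between 0.486 and 3.54 CPM. Denervation and atrophy genes (6 of 7 tested, 4 higher and 2 lower, with 2 past the criterion higher and 1 lower) summed to between 480.1 and 1562 CPM and between 456 and 607 CPM. The sum of 1562 CPM was that of MI4KO replicate 1, with 646 and 480.1 CPM in the other MI4KO libraries. MI4KO replicate 1 also had the lowest TMM factor, at 0.864. RefSeq promoter windows (GRCm38.p6) and GENCODE M21 transcripts were searched for motifs and for shared words of 50 bases.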

Additional observations from a re-analysis of the deposited data

How the results depend on the processing

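The number of the 10 genes past an adjusted p of 0.05 was 0 under all 15 alternatives, with a lowest adjusted p of 0.321 by edgeR. The number past 1.5-fold and an unadjusted p under 0.05 was 1, and it was 2 (Ckmt2 and Ckb) by DESeq2, by the exact test of edgeR and in the unfiltered fit. Leaving out 1 library gave from 0 to 3. It was 0 without MI4KO replicate 1 or without MI4OE replicate 1, 3 (Ckb, Gatm and Gamt) without MI4KO replicate 2 and 3 (Ckmt2, Ckb and Gamt) without MI4OE replicate 2. For the wider list the number was 1. It was 0 with limma on log2(TPM + 1), from 1 to 2 when a library was left out, and 2 (Ak4 and Slc25a5) without MI4OE replicate 1. The cause of these moves was not tested.

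Over 150 values of log2 fold change, 144 kept their direction and 6 reversed, and 8 of the 10 genes reversed under none of the 15 alternatives. Ampd1 was at 0.0668 without MI4OE replicate 1 and ran from -0.437 to 0.0668 over the libraries left out. Slc6a8 was at 0.0735 by library totals alone, and limma gave 0.0567 with a pseudocount of 1 and 0.0581 with 0.1. Over the libraries left out it ran from -0.0827 to 0.0927, with 0.0849 without MI4KO replicate 2 and the highest without MI4OE replicate 1. No paired analysis was possible because replicate numbers were given in accession order and pair no animals. With total counts only, the median of all genes moved to 0.09. Low counts limit Ckb, Gatm, Ampd2 and Ampd3.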
